A study of Mus musculus with 12 samples.

Results

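The difference between Ly6Clow and Ly6Chigh monocytes was examined gene by gene, in the condition that the deposited tables call q1. Ly6Clow monocytes, the patrolling type, were set over Ly6Chigh monocytes, the inflammatory or classical type. Of 23989 gene rows present in both tables, 10545 were compared, which are the rows that the authors' test accepted in both tables (status OK) and that reached 1 FPKM in at least 1 subset. FPKM is the authors' expression value, a fragment count scaled for transcript length and for library size. The samples are total RNA from monocytes of C57Bl/6 mice that received MDP (muramyl dipeptide, the peptidoglycan fragment sensed by the receptor NOD2; titles reading 16 h) or placebo (titles reading Naive, with no time). There were 4 groups of 3 samples: Ly6Clow with MDP, Ly6Clow with placebo, Ly6Chigh with MDP and Ly6Chigh with placebo, 12 samples in all. Mice without NR4A1 or NOD2, which the design text also names, were not analysed here. Each table holds 1 FPKM value per condition and none per sample, so no replicate spread, SD or test of the subset difference is available and the depth is unknown. The sources used here do not name the treatment of q1 or say that q1 is the same treatment in both tables, so a treatment difference between the columns cannot be told apart from the subset difference. Levels are those of q1 unless q2 is named, and the other pairings of columns are given for most lists and for some of the genes at the ends. The sources used here do not say how the monocytes were sorted or whether the samples of a group came from separate animals.

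Monocytes of the mouse circulate as a classical subset, which carries the surface protein Ly6C and the chemokine receptor CCR2 and enters inflamed tissue, and as a patrolling subset, which crawls along the inner wall of blood vessels and clears debris there. Patrolling cells arise largely from classical cells, and they depend on the orphan nuclear receptor NR4A1 for their production and survival. They are known for Fc gamma receptor IV, the scavenger receptor CD36 and the integrin LFA-1, while classical cells are known for CCR2 and for stored antimicrobial proteins.

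Most of the transcriptome lay close to equality. The median log2 difference, log2 of (Ly6Clow FPKM + 1) over (Ly6Chigh FPKM + 1), was 0.01 over the 10545 genes, and 9460 of them (89.7%) lay within 2-fold. At least 4-fold higher in Ly6Clow were 148 genes (1.4% of those compared), and at least 4-fold lower were 126 genes (1.19%). At 2-fold, 526 genes (4.99%) were higher and 559 (5.3%) were lower. These shares are the background for every list count below, and at such shares a short list can hold no gene past 4-fold. The 4-fold limit is a chosen size and not a test. The genes nearest to it on the higher side were Zbtb16, 4.01-fold higher and inside, and Cd9, with 507 FPKM in Ly6Clow and 126 FPKM in Ly6Chigh just outside, while on the lower side Sulf2 stood inside at 4.02-fold lower and Pydc4 outside at 3.99-fold lower. The tables may have been normalized separately. The q1 values sum to 567666 FPKM in the Ly6Clow table and 640484 FPKM in the Ly6Chigh table, and scaling them to the same sum gave a median difference of 0.18 with 181 genes at least 4-fold higher and 112 lower by as much. As a yardstick of size, in the authors' deposited table of Ly6Clow 100% of the 11 genes at 100 FPKM or more that differed at least 4-fold between q1 and q2 had a q-value under 0.05, and in the authors' deposited table of Ly6Chigh 78.6% of 14 such genes did. Among genes whose larger level was 1 to 10 FPKM, the authors' deposited table of Ly6Clow called 41.2% of 17 genes that differed at least 4-fold and 84.8% of 112 that differed 2- to 4-fold, and the authors' deposited table of Ly6Chigh called 60.0% of 15 and 84.5% of 168. Between 10 and 100 FPKM these shares were 70.0% at 4-fold or more and 93.0% at 2- to 4-fold in the authors' deposited table of Ly6Clow, and 67.2% and 90.4% in the authors' deposited table of Ly6Chigh, so in both ranges the share called was smaller for the wider differences. At 100 FPKM or more, 98.0% of 50 genes at 2- to 4-fold were called in the authors' deposited table of Ly6Clow. In the authors' deposited table of Ly6Chigh 97.0% of 67 were, so there too its share was smaller for the wider differences.

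**Figure D1:**
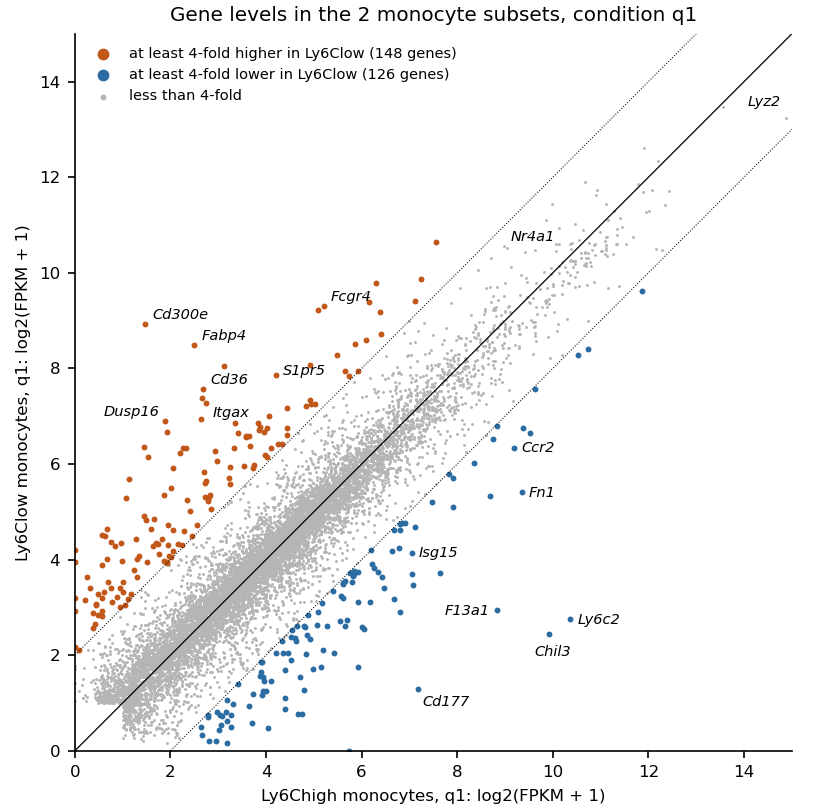
Level of each of the 10545 compared genes in Ly6Clow monocytes (vertical axis) and Ly6Chigh monocytes (horizontal axis) in q1, as log2(FPKM + 1). The solid line marks equal levels and the dotted lines a 4-fold difference; 148 genes lie above the upper dotted line and 126 below the lower one, with Cd300e at 486 FPKM in Ly6Clow and 1.79 FPKM in Ly6Chigh and Ly6c2 at 5.78 FPKM in Ly6Clow and 1312 FPKM in Ly6Chigh farthest out.

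The label of the groups was checked against the 4 genes that mark them. Ly6c2, which encodes the Ly6C antigen itself, was 194-fold lower in the Ly6Clow table (chr15:75108161-75111949, mm10), and Ccr2, the receptor that draws monocytes out of the bone marrow, was lower with a log2 difference of -2.84. Cd36 and Fcgr4 were higher, with log2 differences of 4.90 and 4.10. All 4 genes therefore lie on the side that the table names call for, in q1 and again in q2, where the log2 differences were -7.73 for Ly6c2 and 5.62 for Cd36. Ly6c2 has a close paralog, Ly6c1, and reads could have been split between them; Ly6c1 was not tested by the authors in the Ly6Clow table and stood at 0.200 FPKM in Ly6Clow and 6.88 FPKM in Ly6Chigh.

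The promoters below show sequence at genes of both directions: Isg15 and Ifit3 stand for the interferon-stimulated genes that were lower in Ly6Clow, Fcgr4 and Bcl2a1b for genes that were higher, and Ly6c2 for the gene that defines the subsets. They are RefSeq promoter windows of build GRCm38.p6 (the assembly known as mm10), 250 bases before to 50 bases after the annotated start, written 5′ to 3′ on the gene's strand. The windows are Isg15 chr4:156200769-156201068 (minus strand), Ifit3 chr19:34583279-34583578 (plus), Fcgr4 chr1:171018676-171018975 (plus), Bcl2a1b chr9:89199023-89199322 (plus) and Ly6c2 chr15:75111888-75112187 (minus), 1 of 2 starts listed for that gene. Capitals mark matches, on either strand, to the interferon-stimulated response element GAAANNGAAA or to an extended PU.1 element AGAGGAAGT, letters of the kind bound by the myeloid factor PU.1 (Spi1).
Isg15: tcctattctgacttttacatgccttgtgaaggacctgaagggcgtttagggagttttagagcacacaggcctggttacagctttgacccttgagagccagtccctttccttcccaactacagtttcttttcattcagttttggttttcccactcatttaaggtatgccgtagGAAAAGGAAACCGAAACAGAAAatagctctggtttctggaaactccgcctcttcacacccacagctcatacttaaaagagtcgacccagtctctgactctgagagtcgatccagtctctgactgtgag
Ifit3: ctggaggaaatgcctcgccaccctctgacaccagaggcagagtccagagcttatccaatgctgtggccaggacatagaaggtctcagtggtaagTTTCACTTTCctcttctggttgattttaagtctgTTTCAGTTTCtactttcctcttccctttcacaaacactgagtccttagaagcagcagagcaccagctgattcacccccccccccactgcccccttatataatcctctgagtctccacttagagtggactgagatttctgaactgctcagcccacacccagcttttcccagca
Fcgr4: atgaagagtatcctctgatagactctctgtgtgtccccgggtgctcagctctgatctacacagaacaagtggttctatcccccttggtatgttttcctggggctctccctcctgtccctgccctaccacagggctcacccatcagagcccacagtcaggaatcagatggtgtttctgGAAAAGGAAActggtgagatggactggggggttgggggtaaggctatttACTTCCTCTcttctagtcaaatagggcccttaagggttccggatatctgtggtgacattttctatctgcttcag
Bcl2a1b: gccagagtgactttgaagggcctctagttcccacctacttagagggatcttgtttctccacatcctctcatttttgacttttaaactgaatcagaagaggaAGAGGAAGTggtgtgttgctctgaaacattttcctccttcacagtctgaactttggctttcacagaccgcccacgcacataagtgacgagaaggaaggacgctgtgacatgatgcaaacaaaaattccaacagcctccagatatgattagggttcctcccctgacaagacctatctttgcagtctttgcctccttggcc
Ly6c2: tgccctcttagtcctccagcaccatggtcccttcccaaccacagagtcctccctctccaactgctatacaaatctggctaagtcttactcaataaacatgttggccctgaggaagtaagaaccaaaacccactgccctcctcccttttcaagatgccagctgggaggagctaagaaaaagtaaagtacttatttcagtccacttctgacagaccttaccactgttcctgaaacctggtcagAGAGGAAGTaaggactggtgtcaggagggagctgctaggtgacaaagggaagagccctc
In Isg15 the capitals run over 3 overlapping matches, and in Ifit3 there are 2 matches that read on the opposite strand. Fcgr4 holds a match to each element, the interferon element 73 bases and the PU.1 element 24 bases before the start. Of 10 elements searched these were picked for display after their shares were seen. The interferon element was found in 12 of the 19 interferon-stimulated genes that have a promoter entry, in 14 of 92 genes at least 4-fold lower (15.2%) and in 3 of 104 at least 4-fold higher (2.88%), beside 4.02% of 8017 compared genes with an entry and 3.99% of all 27025 promoters. The PU.1 element was found in 8 of the 104 higher genes (7.69%), among them Bcl2a1a, Bcl2a1b and Bcl2a1d, which are near-identical copies, and in 3 of the 92 lower genes, Ly6c2, S100a4 and 1600014C10Rik, beside 1.63% of compared genes and 1.18% of all promoters. AAAGGTCA, the element bound by NR4A1, was in 2 genes of each side and in 1.20% of compared genes. A match describes the letters of the window and shows no binding.

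The greatest excess in Ly6Clow was that of Cd300e (chr11:115051917-115062038, mm10), which encodes an activating receptor of monocytes, with 486 FPKM in Ly6Clow and 1.79 FPKM in Ly6Chigh in q1, and 392 FPKM in Ly6Clow and 3.31 FPKM in Ly6Chigh in q2. Fabp4, a carrier of fatty acids, followed at 360 FPKM in Ly6Clow and 4.64 FPKM in Ly6Chigh in q1, and 394 FPKM in Ly6Clow and 4.61 FPKM in Ly6Chigh in q2. For both genes the Ly6Clow values of the 2 conditions lie close together and far above the Ly6Chigh values. Dusp16, a phosphatase that switches off MAP kinases, had 118 FPKM in Ly6Clow and 2.72 FPKM in Ly6Chigh, a 32.0-fold higher level with the pseudocount. Lilra5, an immunoglobulin-like receptor of leukocytes, stood at 81.4 FPKM in Ly6Clow and 1.72 FPKM in Ly6Chigh, and Slc12a2, a sodium, potassium and chloride cotransporter, at 101 FPKM in Ly6Clow and 2.83 FPKM in Ly6Chigh. Tgm2, a protein-crosslinking transglutaminase, had 166 FPKM in Ly6Clow and 5.29 FPKM in Ly6Chigh, and Itgax, the integrin chain CD11c, had 155 FPKM in Ly6Clow and 5.66 FPKM in Ly6Chigh. G0s2, an inhibitor of the main triglyceride lipase, had 50.2 FPKM in Ly6Clow and 1.18 FPKM in Ly6Chigh. The other genes among the 12 highest were Cd36, Bcl2a1b, Bcl2a1d and H2-Q8, a class Ib histocompatibility gene whose locus overlaps that of another row, so that its reads may be shared with a near-identical neighbour. In q2 the log2 differences were 3.92 for Dusp16, 4.78 for Lilra5, 3.80 for Slc12a2, 3.59 for Tgm2, 3.77 for Itgax and 2.55 for G0s2. In all 12 the Ly6Clow values of q1 and q2 both exceeded both Ly6Chigh values, though for q1 alone this follows from how the genes were picked.

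At the opposite end, Chil3, the chitinase-like protein Ym1 (chr3:106147554-106167564), had 4.43 FPKM in Ly6Clow and 963 FPKM in Ly6Chigh in q1, and 3.18 FPKM in Ly6Clow and 1395 FPKM in Ly6Chigh in q2. F13a1, the A chain of coagulation factor XIII, was 59.4-fold lower in Ly6Clow. Cd177, a surface protein best known from neutrophils, had 1.44 FPKM in Ly6Clow and 143 FPKM in Ly6Chigh in q1, and 0.212 FPKM in Ly6Clow and 29.1 FPKM in Ly6Chigh in q2. Fn1, fibronectin, stood at 41.6 FPKM in Ly6Clow and 650 FPKM in Ly6Chigh in q1, with nearly the same pair of levels in q2 (45.9 FPKM in Ly6Clow and 687 FPKM in Ly6Chigh). Aoah, an enzyme that inactivates bacterial lipopolysaccharide, was at 0.710 FPKM in Ly6Clow and 24.5 FPKM in Ly6Chigh. Ms4a8a, a membrane protein of the MS4A family, was 14.9-fold lower, and Mfsd7a and AI839979 were 17.9-fold and 12.3-fold lower. In q2 the log2 differences were -2.27 for Aoah, -2.06 for Ms4a8a, -2.55 for Mfsd7a and -2.69 for AI839979. Cxcl10, an interferon-induced chemokine whose locus overlaps another row, had 0.694 FPKM in Ly6Clow and 25.8 FPKM in Ly6Chigh in q1, and 0.567 FPKM in Ly6Clow and 3.02 FPKM in Ly6Chigh in q2. The microRNA row Mir7050 was listed at 0 in Ly6Clow and 51.9 FPKM in Ly6Chigh in q1, and at 90.8 FPKM in Ly6Clow and 0 in Ly6Chigh in q2, so that its direction turned.

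**Figure D2:**
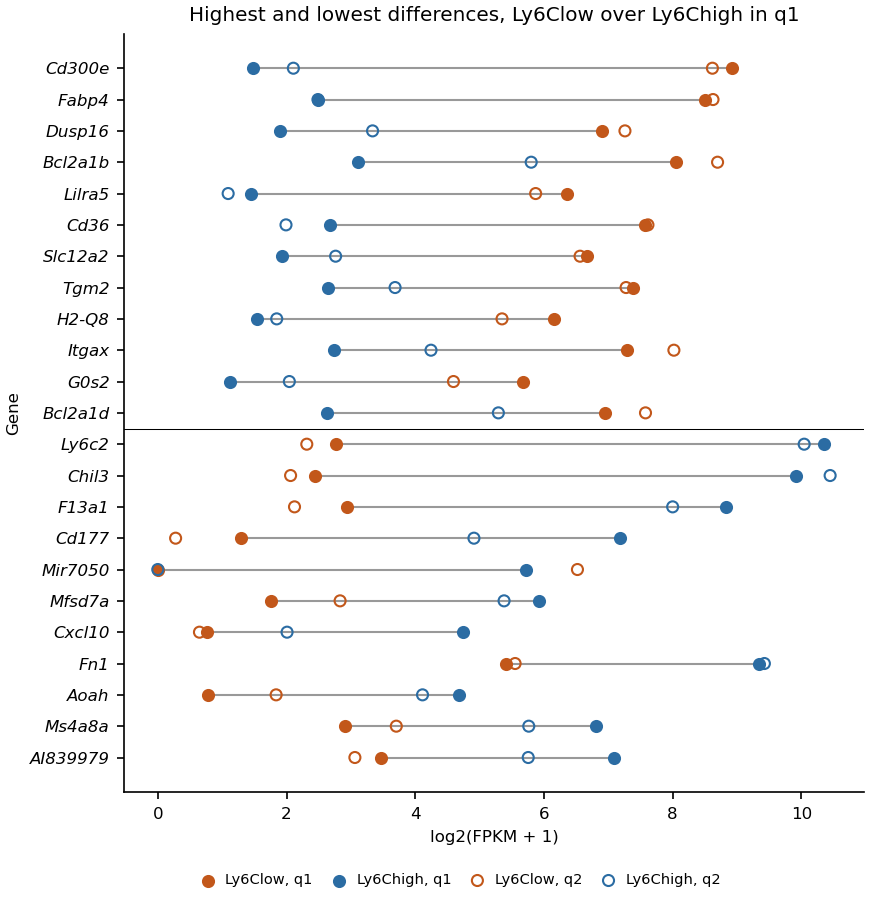
Levels, as log2(FPKM + 1), of the 12 genes with the highest and 11 of the 12 with the lowest difference of Ly6Clow over Ly6Chigh in q1, with filled points for q1 and open points for q2. In 22 of the 23 genes drawn the points of a subset stay on the same side in both conditions; the exception is Mir7050, at 0 in Ly6Clow and 51.9 FPKM in Ly6Chigh in q1 and at 90.8 FPKM in Ly6Clow and 0 in Ly6Chigh in q2. The genes were picked by their q1 difference, so the order of the filled points was fixed beforehand.

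Patrolling and classical lists lay on opposite sides almost throughout. They were drawn from general knowledge of the subsets but with earlier results of these data known, and they include the 4 markers read above. Their counts are therefore a description and no independent check. Of 25 patrolling genes compared, 18 were at least 4-fold higher in Ly6Clow and none lower, with a median log2 difference of 2.79 beside 0.01 for all compared genes. Over the other 3 pairings of columns the median ran between 2.72 and 3.42, and with Ly6Clow q2 over Ly6Chigh q1 1 gene was at least 4-fold lower. Ace, the angiotensin-converting enzyme, had 941 FPKM in Ly6Clow and 149 FPKM in Ly6Chigh, though its locus overlaps another row. Eno3, the enolase of muscle, had 595 FPKM in Ly6Clow and 33.0 FPKM in Ly6Chigh, while the other 16 glycolysis genes compared all lay within 2-fold. Pglyrp1, a secreted protein that binds peptidoglycan, had 882 FPKM in Ly6Clow and 78.4 FPKM in Ly6Chigh. Spn, the sialophorin CD43 that is used to sort patrolling cells, had 581 FPKM in Ly6Clow and 82.8 FPKM in Ly6Chigh, and Cd274, the ligand PD-L1, had 73.6 FPKM in Ly6Clow and 3.57 FPKM in Ly6Chigh. The smallest differences of the list were those of the fractalkine receptor Cx3cr1, at 250 FPKM in Ly6Clow and 175 FPKM in Ly6Chigh in q1 (134 FPKM in Ly6Clow and 22.6 FPKM in Ly6Chigh in q2), and of the integrin chain Itga4 at 130 FPKM in Ly6Clow and 106 FPKM in Ly6Chigh. Of 21 classical genes compared, 9 were at least 4-fold lower in Ly6Clow and none as much higher, with a median of -1.81. The other pairings gave medians between -2.35 and -1.26, and counting rows of any status gave 12 of 24 with a median of -2.03. Only Clec4e, the receptor Mincle, was above 0, at 33.1 FPKM in Ly6Clow and 16.7 FPKM in Ly6Chigh. Cd93, a receptor of the early complement system, was at 1.94 FPKM in Ly6Clow and 25.4 FPKM in Ly6Chigh. Plac8 and the lysozyme gene Lyz2 remained abundant in Ly6Clow at 1424 and 9717 FPKM, against 4988 and 30231 FPKM in Ly6Chigh. Lyz2 made up 1.71% of the summed FPKM in Ly6Clow and 4.72% in Ly6Chigh; its paralog Lyz1 could have taken a share of its reads.

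Of 24 transcription factor genes compared, 3 were at least 4-fold higher and 1 lower by as much, beside 1.4% and 1.19% of all compared genes. At 2-fold, 8 were higher and 3 lower, while 12 lay above and 12 below 0, with a median of 0.00 in q1 and between 0.06 and 0.21 in the other pairings. Tcf7l2, a factor of the Wnt pathway, had 24.0 FPKM in Ly6Clow and 2.03 FPKM in Ly6Chigh, Hes1, a target of Notch, had 49.2 FPKM in Ly6Clow and 5.70 FPKM in Ly6Chigh, and Bhlhe40, a basic helix-loop-helix repressor whose locus overlaps another row, had 115 FPKM in Ly6Clow and 13.3 FPKM in Ly6Chigh. Maf was at 2.12 FPKM in Ly6Clow and 13.8 FPKM in Ly6Chigh. Nr4a1 was the most abundant factor of the list in both subsets in q1, with 1514 FPKM in Ly6Clow and 501 FPKM in Ly6Chigh, and its relatives Nr4a2 and Nr4a3 were under 1 FPKM in every column. Factors known for the maturation and survival of monocytes were higher by less than 4-fold: Cebpb at 304 FPKM in Ly6Clow and 123 FPKM in Ly6Chigh, Klf4 at 219 FPKM in Ly6Clow and 89.3 FPKM in Ly6Chigh, and Klf2 at 272 FPKM in Ly6Clow and 191 FPKM in Ly6Chigh. Cebpb stood the other way round in q2, at 255 FPKM in Ly6Clow and 303 FPKM in Ly6Chigh. In the Notch list 2 of 9 genes compared were at least 4-fold higher, Hes1 and the feedback inhibitor Nrarp (18.5 FPKM in Ly6Clow and 0.790 FPKM in Ly6Chigh), while the receptor gene Notch1 was lower at 4.57 FPKM in Ly6Clow and 17.9 FPKM in Ly6Chigh and the receptor gene Notch2 was at 59.2 FPKM in Ly6Clow and 48.0 FPKM in Ly6Chigh.

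Receptors that place monocytes in blood or tissue differed in both directions, with 3 of 28 at least 4-fold higher, 3 at least 4-fold lower and a median of 0.34, which was between 0.39 and 0.59 in the other pairings. By comparison, 1.4% of all compared genes were at least 4-fold higher and 1.19% lower. S1pr5, the sphingosine 1-phosphate receptor that lets cells leave the bone marrow, had 232 FPKM in Ly6Clow and 17.5 FPKM in Ly6Chigh in q1, and 159 FPKM in Ly6Clow and 12.1 FPKM in Ly6Chigh in q2. Cxcr4, the receptor that retains cells in the marrow, had 245 FPKM in Ly6Clow and 60.1 FPKM in Ly6Chigh. Fpr1, a receptor of formylated bacterial peptides, had 8.26 FPKM in Ly6Clow and 0.851 FPKM in Ly6Chigh. Among the lower were Ccr2, named above, and the chemokine receptor gene Ccr1 with 2.62 FPKM in Ly6Clow and 13.8 FPKM in Ly6Chigh. The chains of LFA-1 that anchor patrolling cells to endothelium were higher by less than 4-fold, Itgal at 816 FPKM in Ly6Clow and 265 FPKM in Ly6Chigh and Itgb2 at 1111 FPKM in Ly6Clow and 556 FPKM in Ly6Chigh. Itgam, the alpha chain of the related integrin Mac-1, was at 238 FPKM in Ly6Clow and 264 FPKM in Ly6Chigh.

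Among Fc and phagocytic receptors 6 of 23 were at least 4-fold higher and 2 lower by as much, with a median of 0.23, and between 0.13 and 0.55 in the other pairings. The shares of all compared genes were 1.4% higher and 1.19% lower. The activating Fc receptor gene Fcgr4 was higher, whereas the other Fc gamma receptor genes were lower: Fcgr1 at 27.6 FPKM in Ly6Clow and 89.9 FPKM in Ly6Chigh, Fcgr3 at 217 FPKM in Ly6Clow and 439 FPKM in Ly6Chigh, and the inhibitory Fcgr2b at 151 FPKM in Ly6Clow and 274 FPKM in Ly6Chigh. Fcer1g, the signalling chain of the activating receptors, was at 2763 FPKM in Ly6Clow and 2221 FPKM in Ly6Chigh. The TREM family divided as well. Treml4, which binds dying cells, had 668 FPKM in Ly6Clow and 70.3 FPKM in Ly6Chigh, Trem1 had 36.8 FPKM in Ly6Clow and 4.08 FPKM in Ly6Chigh, and Trem3 had 151 FPKM in Ly6Clow and 29.7 FPKM in Ly6Chigh, while Trem2 had 12.7 FPKM in Ly6Clow and 56.7 FPKM in Ly6Chigh. The scavenger receptor gene Msr1, whose locus overlaps another row, was lower at 12.4 FPKM in Ly6Clow and 80.6 FPKM in Ly6Chigh.

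Sensors of bacterial products differed by less than 4-fold. None of the 20 Toll and NOD pathway genes compared reached 4-fold, 1 was at least 2-fold higher and 4 were lower by as much, with a median of -0.15, and between -0.25 and 0.18 in the other pairings. Only 1.4% of all compared genes were at least 4-fold higher and 1.19% lower, so none in a list of 15 or 20 is near those shares. At 2-fold the shares of all compared genes were 4.99% higher and 5.3% lower. Nod2, the sensor of MDP, had 10.6 FPKM in Ly6Clow and 10.5 FPKM in Ly6Chigh in q1, and 11.9 FPKM in Ly6Clow and 9.17 FPKM in Ly6Chigh in q2. Its kinase partner Ripk2 had 28.1 FPKM in Ly6Clow and 13.5 FPKM in Ly6Chigh. Tlr5, the receptor of flagellin, was at 0.380 FPKM in Ly6Clow and 3.12 FPKM in Ly6Chigh, and Cd14, a co-receptor of lipopolysaccharide, at 19.8 FPKM in Ly6Clow and 44.7 FPKM in Ly6Chigh. Of 15 NF-kB and feedback genes none reached 4-fold, and 13 lay above 0, with a median of 0.44 in q1 but -0.31 with Ly6Clow q2 over Ly6Chigh q1. Inflammatory cytokines gave 0 of 18 at least 4-fold higher and 2 lower by as much, Cxcl10 and Ccl2, the ligand of CCR2, which had 2.38 FPKM in Ly6Clow and 34.6 FPKM in Ly6Chigh. The cytokine median was -0.19 in q1 and 0.30 with q2 over q2. The cytokine genes Il1b and Tnf were higher by less than 4-fold, at 75.3 FPKM in Ly6Clow and 25.7 FPKM in Ly6Chigh for Il1b and at 22.7 FPKM in Ly6Clow and 8.08 FPKM in Ly6Chigh for Tnf.

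All 25 interferon-stimulated genes compared were lower in Ly6Clow in q1, 8 of them at least 4-fold and 21 at least 2-fold, with a median of -1.57. Among all compared genes 1.19% were at least 4-fold lower and 5.3% at least 2-fold lower. A pseudocount of 10 FPKM in q1 left 1 of 25 at least 4-fold lower and 17 at least 2-fold lower, with a median of -1.08. A pseudocount of 0.1 FPKM gave 11 at least 4-fold lower. Isg15, a ubiquitin-like modifier, had 16.7 FPKM in Ly6Clow and 131 FPKM in Ly6Chigh, and Usp18, the enzyme that removes it, had 8.12 FPKM in Ly6Clow and 47.5 FPKM in Ly6Chigh. Ifi205, a member of the DNA-sensing p200 family, had 1.43 FPKM in Ly6Clow and 26.6 FPKM in Ly6Chigh. Ifit3, an antiviral effector, had 10.6 FPKM in Ly6Clow and 54.9 FPKM in Ly6Chigh in q1, but 4.52 FPKM in Ly6Clow and 3.82 FPKM in Ly6Chigh in q2. The difference depended on which Ly6Chigh column was used. Over the same genes the median was -0.71 with Ly6Clow q2 over Ly6Chigh q2, and 0 of 25 were at least 4-fold lower there. With Ly6Clow q1 over Ly6Chigh q2 the median was -0.26 and 3 of 25 were at least 2-fold lower, and with Ly6Clow q2 over Ly6Chigh q1 it was -2.08 and 22 of 25 were. The summed level of the list was 710 FPKM in Ly6Clow and 1908 FPKM in Ly6Chigh in q1, and 602 FPKM in Ly6Clow and 948 FPKM in Ly6Chigh in q2. These pairings share columns, and whether the subset or the treatment sets the Ly6Chigh level cannot be told apart while the treatment of q1 is not stated.

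**Figure D3:**
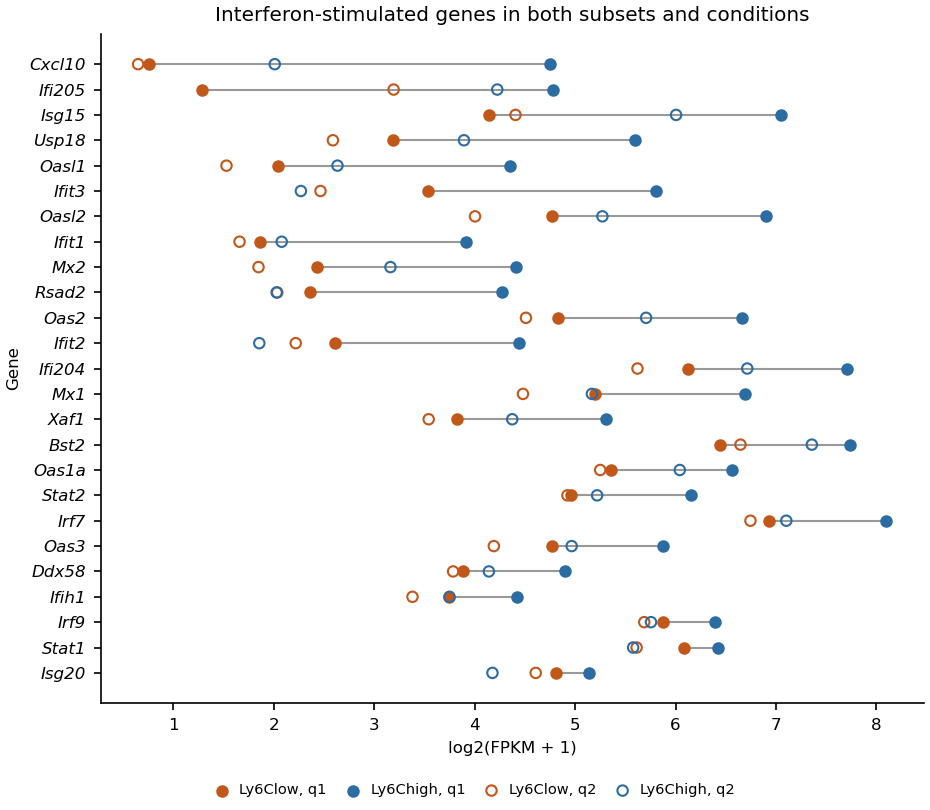
Levels, as log2(FPKM + 1), of the 25 compared interferon-stimulated genes in Ly6Clow (orange) and Ly6Chigh (blue) monocytes, with filled points for q1 and open points for q2. The filled blue point of Ly6Chigh q1 is the rightmost of the 4 values in every gene, while the open blue point of Ly6Chigh q2 lies near the Ly6Clow values in several, as in Ifit3 at 4.52 FPKM in Ly6Clow and 3.82 FPKM in Ly6Chigh.

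Antigen presentation genes of class II gave 3 of 15 at least 4-fold higher, 7 at least 2-fold higher and 2 lower by as much, with a median of 0.86. With q2 over q2, 9 of 15 were at least 4-fold higher and the median was 2.28, and the mixed pairings gave medians of 1.65 and 1.74. Leaving out overlapping loci in q1 gave 2 of 13 at least 4-fold higher and a median of 0.26. H2-Eb1, a class II beta chain, had 684 FPKM in Ly6Clow and 138 FPKM in Ly6Chigh in q1, and 841 FPKM in Ly6Clow and 41.2 FPKM in Ly6Chigh in q2. Cd83, which stabilizes class II at the cell surface, had 79.8 FPKM in Ly6Clow and 3.79 FPKM in Ly6Chigh, and H2-Oa, a modulator of peptide loading whose locus overlaps another row, had 18.9 FPKM in Ly6Clow and 3.73 FPKM in Ly6Chigh. The co-stimulatory gene Cd40 and the loading chain gene H2-DMa were lower, Cd40 at 14.2 FPKM in Ly6Clow and 31.8 FPKM in Ly6Chigh and H2-DMa at 98.5 FPKM in Ly6Clow and 199 FPKM in Ly6Chigh. Ciita, the master regulator of class II, was at 11.4 FPKM in Ly6Clow and 9.36 FPKM in Ly6Chigh. B cells and dendritic cells also express these genes. All 10 B cell markers compared were above 0, with a summed level of 223 FPKM in Ly6Clow and 101 FPKM in Ly6Chigh, among them Cd79a at 51.6 FPKM in Ly6Clow and 22.8 FPKM in Ly6Chigh and Cd22 at 38.7 FPKM in Ly6Clow and 5.96 FPKM in Ly6Chigh. In q2 the B cell markers summed to 308 FPKM in Ly6Clow and 82.3 FPKM in Ly6Chigh. Of 8 dendritic cell markers compared 6 were above 0 in q1, with a median of 0.29, and with q2 over q2 7 of 8 were at least 2-fold higher, with a median of 1.72. The 11 listed summed to 316 FPKM in Ly6Clow and 356 FPKM in Ly6Chigh in q1, of which Bst2, also interferon-stimulated, was 86.2 FPKM in Ly6Clow and 213 FPKM in Ly6Chigh, and to 406 FPKM in Ly6Clow and 197 FPKM in Ly6Chigh in q2. Zbtb46 was farthest from 0 among the dendritic cell markers compared, at 3.76 FPKM in Ly6Clow and 0.411 FPKM in Ly6Chigh in q1. In q2 it was at 7.88 FPKM in Ly6Clow and 0.345 FPKM in Ly6Chigh. Siglech was under 0.1 FPKM in both subsets. The part of other cells in the class II difference was not tested. Of 14 class I and peptide loading genes none reached 4-fold, which is near the shares of all compared genes, 1.4% higher and 1.19% lower. H2-K1 was at 2189 FPKM in Ly6Clow and 929 FPKM in Ly6Chigh.

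The calcium-binding S100 genes and the membrane-binding annexin genes were lower in Ly6Clow, 5 of 15 at least 4-fold and 12 at least 2-fold, with a median of -1.41. Shares of all compared genes were 1.19% and 5.3%. With q2 over q2 the median was -1.42, with Ly6Clow q1 over Ly6Chigh q2 it was -1.94 and 7 of 15 were at least 4-fold lower, and with Ly6Clow q2 over Ly6Chigh q1 it was -0.75 and 1 of 15 was, with 3 at least 2-fold lower. S100a4 had 784 FPKM in Ly6Clow and 3728 FPKM in Ly6Chigh, S100a6 had 310 FPKM in Ly6Clow and 1479 FPKM in Ly6Chigh, and Anxa3 had 5.70 FPKM in Ly6Clow and 50.4 FPKM in Ly6Chigh. S100a8, the calprotectin chain abundant in neutrophils, had 5.03 FPKM in Ly6Clow and 62.9 FPKM in Ly6Chigh in q1, and 9.59 FPKM in Ly6Clow and 422 FPKM in Ly6Chigh in q2. Only Anxa11 lay above 0, at 55.1 FPKM in Ly6Clow and 51.4 FPKM in Ly6Chigh. The neutrophil-type granule list had 9 of 19 members compared, 3 at least 4-fold lower, with a median of -0.63. With rows of any status 6 of 13 were at least 4-fold lower and the median was -1.64, with Lcn2, Mmp8 and Prtn3, each under 1 FPKM in Ly6Clow, among the 4 that then entered. The subunits of the phagocyte oxidase in it lay within 2-fold, such as Cybb at 483 FPKM in Ly6Clow and 513 FPKM in Ly6Chigh. Neutrophil markers summed to 154 FPKM in Ly6Clow and 280 FPKM in Ly6Chigh, of which Csf3r was 137 FPKM in Ly6Clow and 185 FPKM in Ly6Chigh. Of the other markers, S100a8 and S100a9 were at least 4-fold lower in Ly6Clow, while Retnlg lay above 0 with a log2 difference of 0.89. Their defining granule genes Camp, Ngp and Ltf were under 0.1 FPKM in both. The part of neutrophils in these differences was not tested.

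Lipid and cholesterol genes differed in both directions. Of 27 compared, 3 were at least 4-fold higher and 2 lower by as much, and at 2-fold 8 were higher and 4 lower, with a median of 0.37 in q1 and between -0.16 and 0.66 in the other pairings. Beside Fabp4 and Cd36, the lipid-sensing nuclear receptor gene Pparg had 115 FPKM in Ly6Clow and 9.27 FPKM in Ly6Chigh in q1, and 49.3 FPKM in Ly6Clow and 2.35 FPKM in Ly6Chigh in q2. Lower were Npc2, which moves cholesterol out of lysosomes, at 90.5 FPKM in Ly6Clow and 429 FPKM in Ly6Chigh, and the lipoprotein lipase gene Lpl at 10.2 FPKM in Ly6Clow and 47.8 FPKM in Ly6Chigh. Apoe had 2767 FPKM in Ly6Clow and 1013 FPKM in Ly6Chigh in q1, and 120 FPKM in Ly6Clow and 46.1 FPKM in Ly6Chigh in q2, with log2 differences of 1.45 in q1 and 1.36 in q2.

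Survival genes gave 4 of 21 at least 4-fold higher and none as much lower, with a median of 0.31, and between 0.21 and 0.32 in the other pairings. All 4 are members of the anti-apoptotic BCL2 family. Bcl2 had 19.3 FPKM in Ly6Clow and 2.25 FPKM in Ly6Chigh. Bcl2a1b had 265 FPKM in Ly6Clow and 7.68 FPKM in Ly6Chigh in q1, and 414 FPKM in Ly6Clow and 54.8 FPKM in Ly6Chigh in q2. Bcl2a1d and Bcl2a1a were higher too, with log2 differences of 4.31 and 3.86. These 3 rows are near-identical paralogs, so the division of reads among them is uncertain and they do not count as separate findings. The relatives Mcl1 and Bcl2l1 lay near 0, Mcl1 at 404 FPKM in Ly6Clow and 458 FPKM in Ly6Chigh, and the pro-apoptotic Bcl2l11 (Bim) was at 7.03 FPKM in Ly6Clow and 17.9 FPKM in Ly6Chigh.

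Genes of the vessel wall, clotting and complement lay on both sides. In the vascular list 2 of 20 were at least 4-fold higher, Ace and the tetraspanin gene Cd81 (40.0 FPKM in Ly6Clow and 6.08 FPKM in Ly6Chigh), both with overlapping loci, and 2 were at least 4-fold lower, F13a1 and the matrix glycoprotein gene Thbs1, which had 11.5 FPKM in Ly6Clow and 85.5 FPKM in Ly6Chigh. Platelet and erythroid markers summed to 984 FPKM in Ly6Clow and 634 FPKM in Ly6Chigh, and all 9 compared were above 0 with none past 2-fold; their part in the vascular differences was not tested. The vascular median was -0.23 in q1 and between -0.38 and -0.03 in the other pairings. Complement genes gave 2 of 12 at least 4-fold higher and 2 lower by as much, with a median of 0.39 in q1 and -0.26 with q2 over q2. The C1q chain gene C1qa had 29.1 FPKM in Ly6Clow and 1.73 FPKM in Ly6Chigh in q1, and 14.6 FPKM in Ly6Clow and 6.78 FPKM in Ly6Chigh in q2, and C1qc had 20.5 FPKM in Ly6Clow and 2.55 FPKM in Ly6Chigh in q1 but 10.1 FPKM in Ly6Clow and 10.2 FPKM in Ly6Chigh in q2. The central component gene C3, at 50.9 FPKM in Ly6Clow and 241 FPKM in Ly6Chigh, and Cfb, at 2.24 FPKM in Ly6Clow and 20.1 FPKM in Ly6Chigh, were lower, both with overlapping loci. C1q is also made by tissue macrophages, whose 11 listed markers summed to 253 FPKM in Ly6Clow and 129 FPKM in Ly6Chigh. These markers include C1qa, C1qc and C1qb, the last at 45.6 FPKM in Ly6Clow and 10.8 FPKM in Ly6Chigh. The sums therefore partly repeat the C1q difference. Vcam1 was under 0.1 FPKM in both, and Timd4 was at 2.49 FPKM in Ly6Clow and 0.0369 FPKM in Ly6Chigh. The part of such cells was not tested. In bulk samples, fewer cells of a type and less RNA per cell cannot be told apart.

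Of 21 cell cycle and DNA replication genes compared none reached 4-fold, 7 were at least 2-fold higher and 1 lower by as much, with a median of 0.64. The shares of all compared genes were 1.4% higher and 1.19% lower at 4-fold, so none in 21 is near them. At 2-fold they were 4.99% and 5.3%. With q2 over q2, 1 of 25 was at least 2-fold higher and 2 were lower, with a median of 0.08. With Ly6Clow q1 over Ly6Chigh q2, 1 of 25 was higher and 4 lower, and with Ly6Clow q2 over Ly6Chigh q1, 10 of 24 were higher and 1 lower, 3 of the 10 by at least 4-fold. A pseudocount of 10 FPKM in q1 left 0 on either side. The 7 include replication helicase genes, such as Mcm5 at 15.2 FPKM in Ly6Clow and 4.72 FPKM in Ly6Chigh, while the mitotic genes Cdk1 and Ccnb1 were under 1 FPKM in both subsets. The list of immediate early and heat shock genes gave 1 of 20 at least 4-fold higher, the ERK phosphatase gene Dusp5 (109 FPKM in Ly6Clow and 13.6 FPKM in Ly6Chigh), and 1 at least 4-fold lower, Fosb (5.13 FPKM in Ly6Clow and 37.9 FPKM in Ly6Chigh). Fos had 310 FPKM in Ly6Clow and 1168 FPKM in Ly6Chigh. The median of this list was 0.20 in q1 and -0.47 with Ly6Clow q2 over Ly6Chigh q1. None of the 15 housekeeping genes differed by 2-fold, and their median was 0.01. None of the 26 cytosolic ribosomal protein genes did either, but 25 of them were below 0, with a median of -0.49 as deposited and -0.32 after scaling to the same sum. Markers of T cells summed to 7.85 FPKM in Ly6Clow and 7.16 FPKM in Ly6Chigh, those of NK cells to 51.6 FPKM in Ly6Clow and 16.9 FPKM in Ly6Chigh, and those of eosinophils and basophils to 2.46 FPKM in Ly6Clow and 0.596 FPKM in Ly6Chigh.

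**Figure D4:**
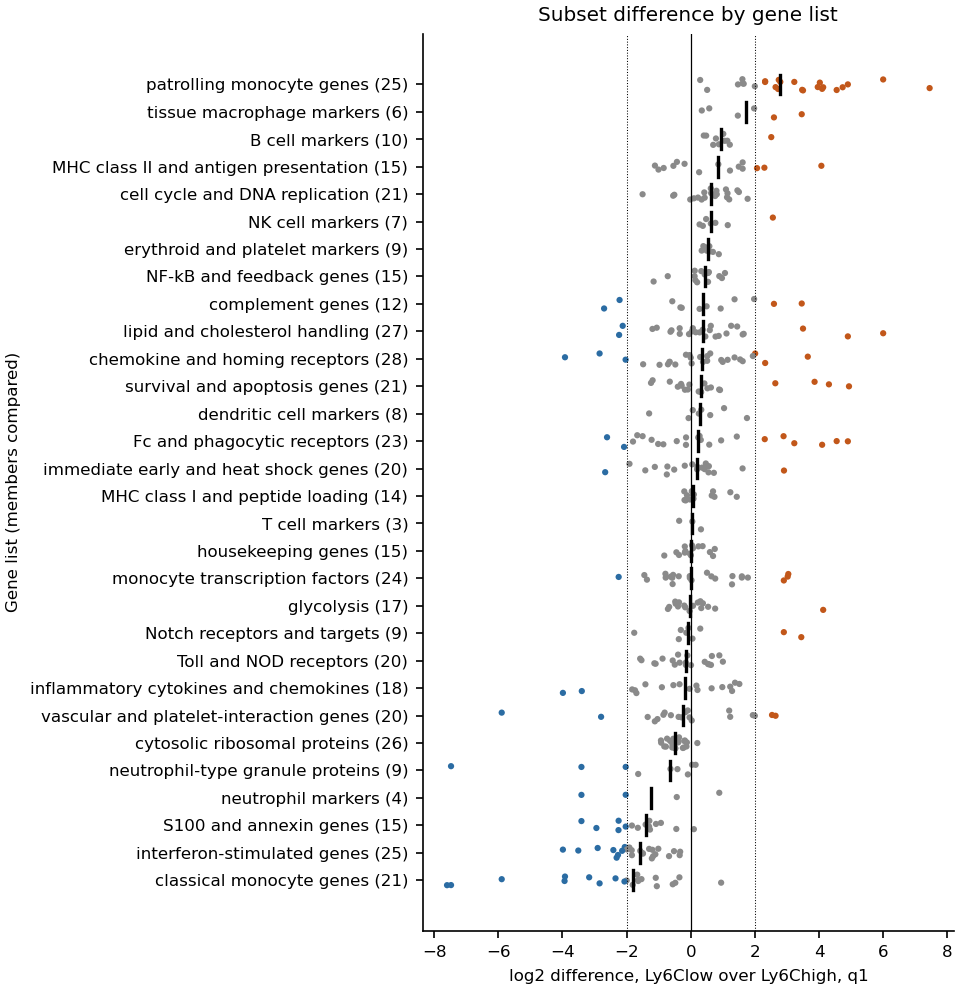
Log2 difference of Ly6Clow over Ly6Chigh in q1 for each compared member of 30 gene lists, with the number of members in brackets and a black bar at the list's median. Dotted lines mark 4-fold; orange points lie beyond it on the higher side and blue points on the lower side. The patrolling list has a median of 2.79 and the classical list one of -1.81.

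The q2 columns gave a second reading of the subset difference, from a different pair of columns. Of the 148 genes at least 4-fold higher in q1, 87 were also at least 4-fold higher in q2, and in 141 the 2 Ly6Clow values both exceeded the 2 Ly6Chigh values. Of the 126 genes at least 4-fold lower, 53 were also at least 4-fold lower in q2, and in 121 both Ly6Clow values were under both Ly6Chigh values. Both sets were picked by q1, so the order of their q1 values was fixed beforehand. Only the comparisons that involve a q2 value could differ, and the share over all compared genes was not computed. When each Ly6Clow column was set over each Ly6Chigh column, 67 genes stayed at least 4-fold higher in all 4 pairings and 38 at least 4-fold lower. Those genes differ at least 4-fold between the tables whichever treatment q1 and q2 stand for. Between q2 and q2 the count of genes at least 4-fold higher was 145 and of those at least 4-fold lower was 74. The share of genes past 4-fold rose with level. Of 1080 genes whose larger value was at least 100 FPKM, 39 were higher (3.61%) and 33 lower (3.06%). Between 10 and 100 FPKM, 83 of 5385 genes were higher (1.54%) and 74 lower (1.37%). Of 4080 genes between 1 and 10 FPKM, 26 were higher (0.637%) and 19 lower (0.466%), a range where the pseudocount understates folds. With the pseudocount the lowest genes of that range cannot reach 4-fold at all, so the rise with level is partly set by the formula. At 10 FPKM or more in Ly6Clow and under 1 FPKM in Ly6Chigh were 13 genes, and 7 genes had the reverse.

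**Figure D5:**
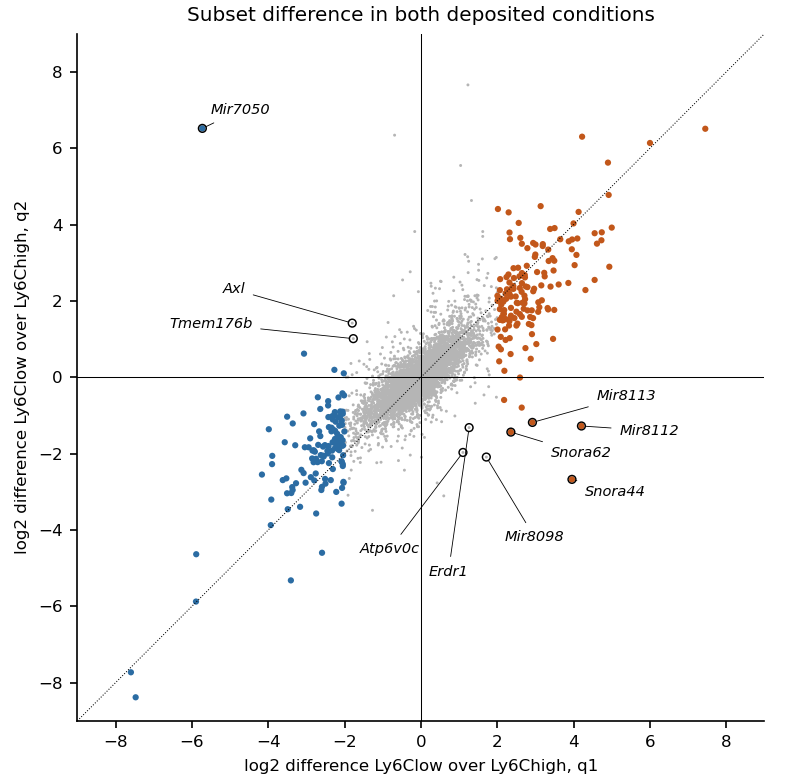
Log2 difference of Ly6Clow over Ly6Chigh in q1 (horizontal axis) and in q2 (vertical axis) for the compared genes; orange and blue points are at least 4-fold higher or lower in q1, and the dotted line marks equal differences. Ringed and named are the 10 genes at least 2-fold one way in q1 and at least 2-fold the other way in q2, among them Axl at -1.80 in q1 and 1.42 in q2.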

How the data were processed

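Reads were trimmed with Trimmomatic 0.33, aligned with TopHat2 2.0.14 and Bowtie2 2.2.5 to mm10 and quantified by the authors with Cufflinks 2.21 and Cuffdiff 2.21, per the submitters' processing notes, which give no settings. The deposited tables hold, per the file headers, 1 FPKM value for each of the conditions q1 and q2 (both columns FPKM) and the authors' p-value and q-value for q2 against q1 within a table. A table was tied to its subset by its name, which matches the subset words of the labels; the deposited log2 ratios were not used. The tables were joined on gene and locus (23989 of 23996 rows). Differences are log2 of (Ly6Clow FPKM + 1) over (Ly6Chigh FPKM + 1), for 10545 rows with status OK in both tables and at least 1 FPKM in either; the pseudocount of 1 FPKM understates the folds of low genes. Called means at least 4-fold. With 1 value per group no test was possible, and the depth is unknown, so no counting interval is given. Named are the 12 highest and 12 lowest genes, the 4 markers, up to 4 members farthest from 0 and the defining members of 31 lists, and genes that turned over in q2; further list members were named for their role after their values were seen. A single gene that the rule names is not reported here. Lists and members were chosen with earlier results of these data known. Locus starts were made 1-based. Scripts used Python 3.11.15 and pandas 2.3.3 and were tested on simulated data. Alternatives were other pseudocounts, minimums, scalings, statuses, folds and column pairings.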

Additional observations from a re-analysis of the deposited data

Results flagged for a closer look

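The results for 10 genes stood out because the subset difference was at least 2-fold one way in q1 and at least 2-fold the other way in q2; none of these differences between conditions was tested, and each rests on 4 values. Axl, a receptor tyrosine kinase that binds dying cells, had a log2 difference of Ly6Clow over Ly6Chigh of -1.80 in q1 and 1.42 in q2, with 5.83 FPKM in Ly6Clow and 22.8 FPKM in Ly6Chigh in q1. Tmem176b, a membrane protein of antigen-presenting cells, had -1.77 in q1 and 1.01 in q2, and its Ly6Chigh level was 400 FPKM in q1 and 31.1 FPKM in q2. Atp6v0c, a subunit of the vacuolar proton pump whose locus overlaps another row, had 1.10 in q1 and -1.97 in q2. Erdr1, which is annotated on chromosome Y, had 1.26 in q1 and -1.32 in q2. The other 6 are rows of short RNAs: Mir7050 with -5.73 in q1 and 6.52 in q2, Mir8098 with 1.71 and -2.09, Mir8112 with 4.21 and -1.28, Mir8113 with 2.92 and -1.18, Snora44 with 3.96 and -2.67, and Snora62 with 2.36 and -1.44, each in q1 and then in q2. Mir7050, Mir8112, Mir8113 and Snora44 were listed at 0 in at least 1 column, and Mir8098 was at 0.000243 FPKM in Ly6Chigh in q1.

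A further 8 genes were outside the comparison because the authors' test had not accepted them in 1 of the tables, yet they had at least 10 FPKM in the other subset and under 1 FPKM in that one in q1. Retnla, a secreted protein of alternatively activated macrophages, had 302 FPKM in Ly6Clow and 0.0737 FPKM in Ly6Chigh, with 147 FPKM in Ly6Clow and 0.120 FPKM in Ly6Chigh in q2. Adrb1, the beta-1 adrenergic receptor gene, had 14.8 FPKM in Ly6Clow and 0.0373 FPKM in Ly6Chigh, and Fcrls, an Fc receptor-like gene, had 13.2 FPKM in Ly6Clow and 0.114 FPKM in Ly6Chigh. In the other direction, the collagenase gene Mmp8 had 0.240 FPKM in Ly6Clow and 59.0 FPKM in Ly6Chigh, and the proteoglycan gene Vcan had 0.0896 FPKM in Ly6Clow and 25.3 FPKM in Ly6Chigh. Lcn2, which withholds iron from bacteria, had 0.0663 FPKM in Ly6Clow and 22.6 FPKM in Ly6Chigh, Tarm1 had 0.0351 FPKM in Ly6Clow and 10.5 FPKM in Ly6Chigh, and the granule protease gene Prtn3, whose locus overlaps another row, had 0.180 FPKM in Ly6Clow and 10.1 FPKM in Ly6Chigh.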

How the results depend on the processing

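The counts of 148 higher and 126 lower genes at 4-fold stayed within 1.5 times of these values with a minimum of 5 FPKM, with no minimum, with rows of any status, after either centring, after scaling to the same sum, without overlapping loci, without miRNA and snoRNA rows and in either mixed pairing of q1 with q2. A pseudocount of 0.1 FPKM gave 200 lower genes, and a pseudocount of 10 FPKM gave 53 higher and 34 lower. A limit of 2-fold gave 526 higher and 559 lower, and a limit of 8-fold gave 51 and 31. The q2 columns gave 74 lower genes, and requiring all 4 pairings left 67 higher and 38 lower. Scaling to the same sum set the median of all compared genes at 0.18. Leaving out the short RNA rows and requiring all pairings were chosen after seeing the data. Among the named genes and list members past 4-fold in q1, directions turned only in pairings with a q2 column: with Ly6Clow q1 over Ly6Chigh q2, Mir8112 had a log2 difference of -0.74, Snora44 -0.64, Snora62 -0.069 and Ifit3 1.27; with Ly6Clow q2 over Ly6Chigh q1, Mir7050 had 0.80; with q2 over q2, Mir7050 had 6.52, C1qc -0.0060, Mir8112 -1.28, Mir8113 -1.18, Snora44 -2.67, Snora62 -1.44 and Ifit3 0.20. Genes with smaller differences in q1 turned too, such as Axl, Tmem176b and Cebpb. List medians moved with the pairing as given beside the lists, and several lists also with the handling of overlapping loci, of test status or of the minimum. Besides the class II list, leaving out overlapping loci set the patrolling median at 3.48 and the complement median at 0.72. It left 0 vascular genes at least 4-fold higher and 0 complement genes at least 4-fold lower. The granule list moved with test status, and a minimum of 5 FPKM set the cytokine median at -0.72. The cause was not tested. No paired analysis was possible because each condition has 1 value and the columns carry no replicate number; for the same reason no replicate could be left out. Without counts or depth, the precision of low levels is unknown.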

Other observations

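Sex-linked genes were read as a check that the tables describe like animals. Xist was at 0.00980 FPKM in Ly6Clow and 0.00385 FPKM in Ly6Chigh in q1, and the Y-linked genes Ddx3y and Eif2s3y were at 34.6 and 44.8 FPKM in Ly6Clow and at 17.9 and 49.4 FPKM in Ly6Chigh. Ccl17, a chemokine of dendritic cells picked after its values were seen, had 1.61 FPKM in Ly6Clow and 0.110 FPKM in Ly6Chigh in q1, and 347 FPKM in Ly6Clow and 0.718 FPKM in Ly6Chigh in q2. The dendritic cell marker Cd209a had 129 FPKM in Ly6Clow and 62.1 FPKM in Ly6Chigh in q1, and 194 FPKM in Ly6Clow and 3.17 FPKM in Ly6Chigh in q2. Fabp5 had 14.7 FPKM in Ly6Clow and 31.6 FPKM in Ly6Chigh in q1, and 742 FPKM in Ly6Clow and 486 FPKM in Ly6Chigh in q2.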
